A study of Mus musculus with 3 samples.

Results

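The 42 genes described here act in mitosis and cytokinesis, and were given as a list of gene symbols: all 42 were found among the 55536 genes of the deposited gene tables. They were measured in polyadenylated RNA of macrophages that were grown from C57BL/6J mouse bone marrow. All libraries carry 1 label, treatment with lipid A (the Toll-like receptor 4 ligand within lipopolysaccharide) at 100 ng/ml for 0 minutes. The 1 group has 3 libraries, biological replicates 1, 2 and 3, and no allele, transgene or second treatment is named. Each library has its own biosample record and all share a donor record; sex and age were not collected, and whether the cultures came from separate animals is not said, so the spread between libraries may be partly technical. With 1 group there was no contrast to test, so every value below is a description and no p-value is given.

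A dividing cell switches these genes on late, in G2 phase and mitosis. Cyclin-dependent kinase 1 with cyclins A and B starts mitosis, the spindle checkpoint holds back the anaphase-promoting complex until every kinetochore is attached, and the central spindle then guides the cleavage furrow. In resting cells the DREAM complex represses many of these genes through a promoter element called CHR (cell cycle genes homology region), often beside CCAAT boxes bound by NF-Y. Macrophages grown from bone marrow arise from dividing precursors under colony-stimulating factor 1, and most leave the cell cycle as they mature.

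Promoter sequences were looked at because a shared element is a known link between many of these genes. RefSeq promoter windows (GRCm38.p6) each ran from 250 bases before to 50 bases after an annotated start. They were found for 34 of the 42 genes, and 2 of these genes had 2 windows (36 windows in all). Windows of Tpx2, Cdc25c, Ccna2, Smc4, Kif20a, Incenp, Aurkb and Foxm1 were not in the table. The CHR was searched as TTTGAA or TTCGAA and the CCAAT box as CCAAT, on both strands. The stretches below are shown because Ccnb2, Hmmr, Cdk1, Ube2c and Top2a hold both elements near the start, while Birc5 holds neither in the stretch printed. Each is written 5′ to 3′ along the gene, with CHR and CCAAT matches of either strand in capitals; a CHR on the other strand reads TTCAAA or TTCGAA and a CCAAT box there reads ATTGG. The positions are chr9:70421525-70421674 (minus strand) for Ccnb2, chr11:40733408-40733557 (minus) for Hmmr, chr10:69352909-69353032 (minus) for Cdk1, chr2:164769809-164769927 (plus) for Ube2c, chr11:99024160-99024309 (minus) for Top2a and chr11:117849117-117849266 (plus) for Birc5.
Ccnb2: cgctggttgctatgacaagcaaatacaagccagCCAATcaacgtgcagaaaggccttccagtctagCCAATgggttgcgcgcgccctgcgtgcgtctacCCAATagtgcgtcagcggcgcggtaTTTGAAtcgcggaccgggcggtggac
Hmmr: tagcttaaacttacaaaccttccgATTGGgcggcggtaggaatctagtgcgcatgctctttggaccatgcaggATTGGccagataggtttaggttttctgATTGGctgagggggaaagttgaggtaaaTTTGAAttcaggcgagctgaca
Cdk1: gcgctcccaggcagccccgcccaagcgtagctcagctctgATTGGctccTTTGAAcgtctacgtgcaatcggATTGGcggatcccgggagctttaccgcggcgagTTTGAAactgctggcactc
Ube2c: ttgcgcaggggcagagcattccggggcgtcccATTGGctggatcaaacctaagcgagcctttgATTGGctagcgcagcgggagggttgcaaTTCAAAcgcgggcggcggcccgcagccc
Top2a: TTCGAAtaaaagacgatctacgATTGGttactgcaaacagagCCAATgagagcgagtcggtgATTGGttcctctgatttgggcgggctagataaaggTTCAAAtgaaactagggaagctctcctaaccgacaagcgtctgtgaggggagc
Birc5: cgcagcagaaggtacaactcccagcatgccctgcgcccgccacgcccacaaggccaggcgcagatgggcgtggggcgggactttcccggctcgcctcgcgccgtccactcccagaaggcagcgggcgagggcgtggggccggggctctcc

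Counting the annotated start as base 1, the CHR nearest the start began at base 5 in Ccnb2, 9 in Hmmr, -15 in Cdk1, -29 in Ube2c and -23 in Top2a. The Ccnb2 stretch has 3 CCAAT boxes, beginning at -87, -54 and -21, 33 bases apart. A CHR match was present in a window of 28 of the 34 genes (82.4%), against 20.2% of 17491 protein-coding genes and 21.7% of 27025 genes of all types. CCAAT was present in 27 of 34 (79.4%) against 42.3% of protein-coding genes, and both elements in 25 of 34 (73.5%) against 8.22%. In 25 of the 28 genes with a CHR, the nearest match began within 50 bases of the start, and in 18 it lay after the start. E2F sites were searched on both strands as TTCCCGC, as TTCGCGC, with the variants written TTGCCGC and, last of the set, TTGGCGC. They were present in 7 of 34 (20.6%) against 13.7%. CCAAT and E2F matches overlapped in 3 of the 36 windows (that of Ccnb1 and both of Ect2), and CCAAT and CHR matches in 1. Birc5, Ccnb1, Cenpe, Mad2l1, Nuf2 and Nusap1 had no CHR letters in the window. The median GC content of the windows was 59.0%, against 56.3% for protein-coding genes. A match describes letters and does not show that a factor was bound.

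**Figure D1:**
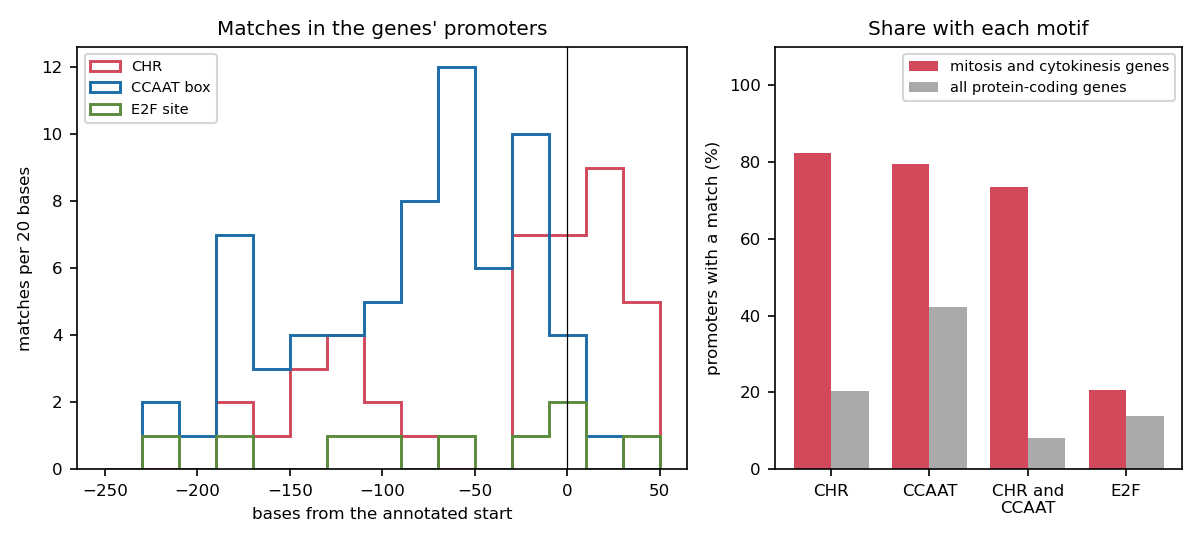
Left, number of CHR, CCAAT and E2F matches (y axis, per 20 bases) by distance from the annotated start in bases (x axis) over the promoter windows of the mitosis and cytokinesis genes. Right, percent of genes whose window holds each element, for these genes (red, n = 34) and all protein-coding genes (grey, n = 17491): CHR 82.4% against 20.2%, and CHR with CCAAT 73.5% against 8.22%.

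Expected counts per library totalled 27946070 in replicate 1, 29779410 in replicate 2 and 53447437 in replicate 3. Where a gene has no count, up to 3 counts remain possible (0.107, 0.101 and 0.0561 CPM), counting error alone considered; CPM are counts scaled to a common library size. All 10 macrophage markers (among them Csf1r, Adgre1, Cd68 and Lyz2) reached 1 TPM everywhere, with sums of 21127, 35796 and 18963 TPM. The sums rest largely on 1 marker with a mean of 18742 TPM. The median marker was at 405, 376 and 239 TPM in replicates 1, 2 and 3. TPM (a share of transcripts, corrected for their length) is used below to compare genes, and CPM scaled by TMM factors to compare libraries.

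Transcripts of most mitosis and cytokinesis genes were at low levels, and replicate 2 stood apart from replicates 1 and 3. The median gene had a mean of 4.97 TPM, against 14.9 TPM for the 11886 genes that passed the filter on low counts (called the genes tested below, although no significance test was run). The median level was 6.43 TPM in replicate 1, 1.5 in replicate 2 and 6.88 in replicate 3. At least 1 TPM was reached by 41, 29 and 41 of the 42 genes in these libraries, and by 29 in every library. Their summed level was 473, 276 and 488 TPM. Of the 276 TPM in replicate 2, Cenpa alone gave 102.3, and without Cenpa the sums were 462, 173 and 460 TPM.

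**Figure D2:**
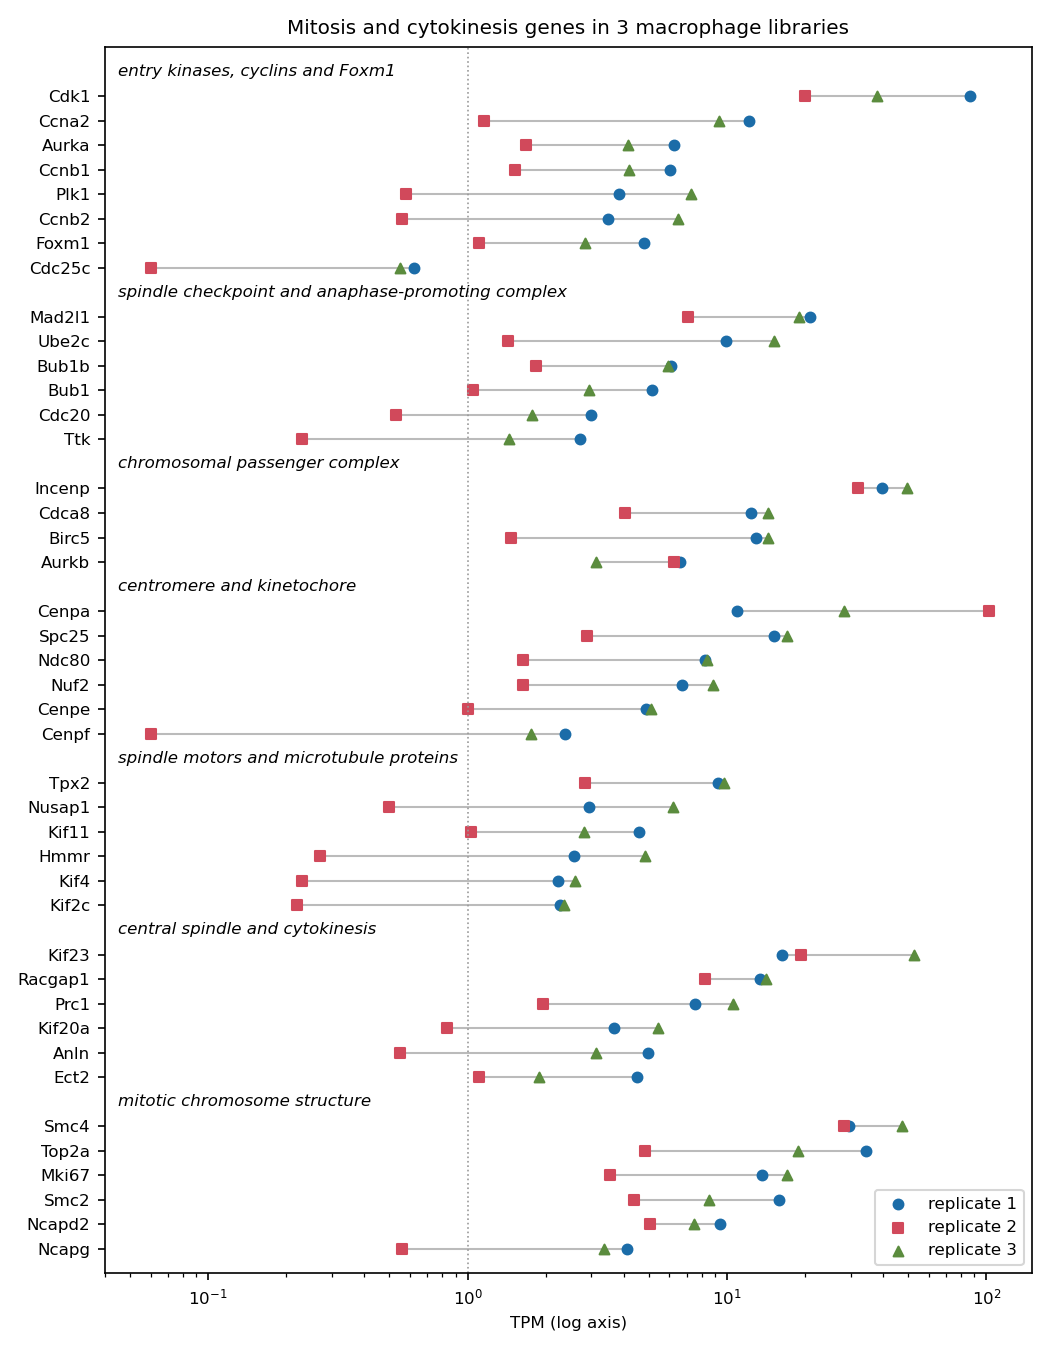
TPM (x axis, log scale) of each of the 42 genes (rows, grouped by role) in replicates 1 (circles), 2 (squares) and 3 (triangles); the grey line joins the lowest and highest library and the dotted line marks 1 TPM. The squares lie to the left for most genes, and Cenpa is the exception at 102.3 TPM in replicate 2.

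For 41 genes the libraries could be compared on the CPM scale. The filter needed about 0.336 CPM in every library, so a gene low in any library was dropped, which removed Cdc25c. Of these 41 genes, 38 had their lowest level in replicate 2 (32.9% of all genes tested were lowest there), and 33 were over 2-fold lower in replicate 2 than in each other library. Among all genes tested the share over 2-fold lower in replicate 2 was 3.74%. The median log2 ratio of replicate 2 to replicates 1 and 3 (their geometric mean) was -2.27, and it was 1.05 for replicate 1 and 1.16 for replicate 3 taken the same way. All genes tested had a median of 0.00 in replicate 2, which TMM scaling holds near 0 by design. With library totals only, the medians in replicate 2 were 0.10 for all genes tested and -2.17 for the 41 genes. Against replicate 2, the median gene was 4.52-fold higher in replicate 1 and 5.36-fold higher in replicate 3. In bulk RNA fewer cells with these transcripts and fewer transcripts per cell cannot be told apart.

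The 8 tested genes that were not over 2-fold lower in replicate 2 were Cdk1, Ncapd2, Racgap1, Smc4, Incenp, Kif23, Aurkb and Cenpa. In the other directions there were fewer calls, given here with the share of all genes tested. Cdk1 was the 1 gene over 2-fold higher in replicate 1 (4.45% of all genes), and Cenpa was over 2-fold higher in replicate 2 (3.74%). In replicate 3, 6 of the 41 genes were over 2-fold higher: Ccnb2, Plk1, Cenpf, Nusap1, Hmmr and Smc4. That share was above the 3.05% of all genes tested. On the log2 TPM scale with a pseudocount of 1 the count was 1. Cenpa was also the 1 gene over 2-fold lower in replicate 1 (4.11%), and none of the 41 was over 2-fold lower in replicate 3 (4.26%).

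**Figure D3:**
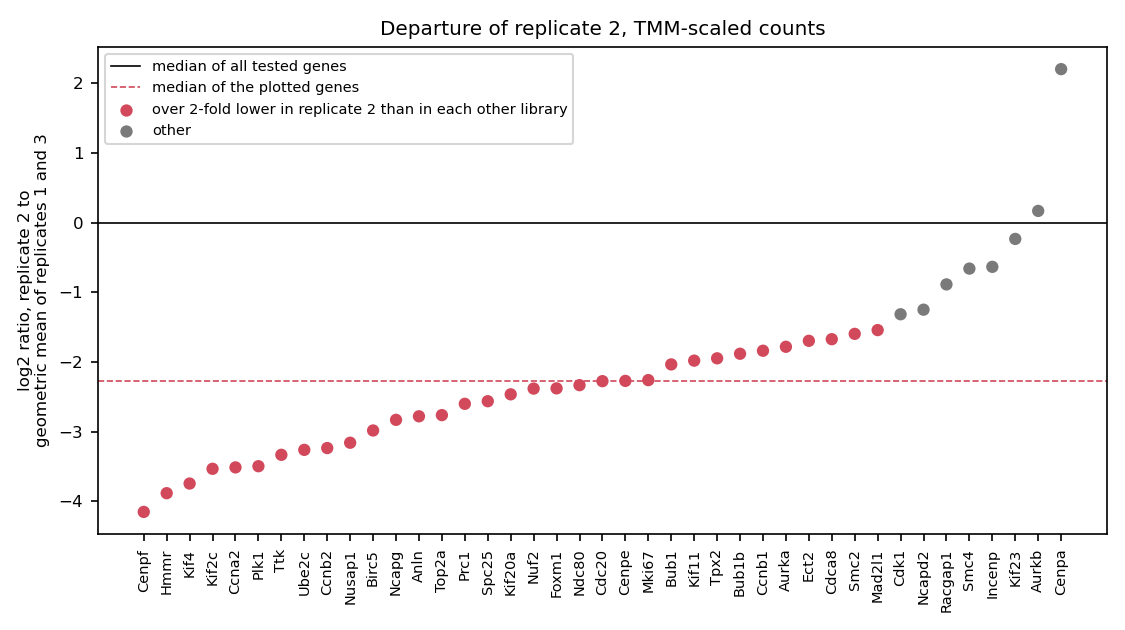
log2 ratio of replicate 2 to the geometric mean of replicates 1 and 3 (y axis, TMM-scaled counts) for the 41 tested genes, ordered from lowest to highest (x axis). Red points are the 33 genes over 2-fold lower in replicate 2 than in each other library; the dashed line is their group's median over all 41 genes (-2.27) and the solid line the median of all 11886 genes, and the points run from Cenpf at -4.15 to Cenpa at 2.20.

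The kinases and cyclins that start mitosis had the most abundant of the 42 genes and the least abundant. Cdk1 (chr10:69335146-69352938, mm10), the catalytic kinase of mitotic entry, was at 86.7, 20.1 and 37.9 TPM in replicates 1, 2 and 3 (mean 48.2 ± 34.5 SD, n = 3). Ccna2, which encodes cyclin A2, was at 12.1, 1.16 and 9.32 TPM (7.54 ± 5.70). On the CPM scale Ccna2 was 11.3-fold higher in replicate 1 than in replicate 2 and 11.5-fold higher in replicate 3, and replicates 1 and 3 differed by 0.03 in log2. Ccnb2, a B-type cyclin, was at 3.49, 0.56 and 6.47 TPM and Plk1, a kinase needed for spindle assembly and mitotic exit, at 3.85, 0.58 and 7.29. Both were over 2-fold higher in replicate 3 than in replicate 1 (2.32-fold for Ccnb2 and 2.36-fold for Plk1). Ccnb1, Aurka (a centrosomal kinase) and Foxm1 (a transcription factor that activates G2 and M genes) had means of 3.91, 4.03 and 2.92 TPM and log2 ratios of -1.84, -1.78 and -2.38 in replicate 2. Cdc25c, a phosphatase that activates Cdk1, had 20, 2 and 34 counts, or 0.62, 0.06 and 0.55 TPM. The kallisto-format table gave Cdc25c 0.865, 1.07 and 0.798 TPM, so the order of the libraries differs between the tables. Its coding transcripts in the kallisto-format table were at 0.288, 0.0367 and 0.462 TPM. All 7 tested genes of this group were lowest in replicate 2, and in 6 the gap to each other library was over 2-fold.

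Spindle checkpoint genes and the activators of the anaphase-promoting complex were all low in replicate 2. Mad2l1, the checkpoint protein that holds Cdc20, was at 20.96, 7.10 and 18.96 TPM (15.7 ± 7.49 SD, n = 3). Ube2c, the ubiquitin-conjugating enzyme of the complex, was at 9.95, 1.43 and 15.1 TPM (8.84 ± 6.92). Ttk, the kinase that starts checkpoint signalling, was the lowest of the group at 2.72, 0.23 and 1.44 TPM, from 130, 11 and 147 counts. Bub1, Bub1b and Cdc20 had means of 3.03, 4.61 and 1.77 TPM. All 6 genes were over 2-fold lower in replicate 2 than in each other library, with log2 ratios from -3.33 for Ttk to -1.54 for Mad2l1. The 16 core subunits and partners of the anaphase-promoting complex act throughout G1 as well. In contrast to the 6 genes, their median log2 ratio in replicate 2 was -0.06. None of the 16 was over 2-fold lower there, against 3.74% of all genes tested. At that share few or none of 16 genes would be counted.

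The chromosomal passenger complex, which corrects faulty attachments and then moves to the central spindle, had transcripts with differing patterns across libraries. Incenp, its scaffold, was at 39.7, 31.9 and 49.4 TPM (40.3 ± 8.75 SD, n = 3), and Aurkb, its kinase, at 6.61, 6.24 and 3.13 TPM (5.33 ± 1.91). For neither was replicate 2 far below the others: the log2 ratio was -0.63 for Incenp and 0.17 for Aurkb, whose lowest library was replicate 3. Birc5 (survivin) and Cdca8 (borealin) bind to each other and to Incenp and target the complex to centromeres. Birc5 was at 12.9, 1.47 and 14.4 TPM and Cdca8 at 12.4, 4.06 and 14.4, and both were over 2-fold lower in replicate 2. In transcript level, Aurkb was above Birc5 in replicate 2 and below it in replicates 1 and 3.

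At the centromere the pattern of Cenpa was opposite to that of its group. Cenpa (chr5:30666777-30674830, mm10), the histone H3 variant that marks centromeres, was at 10.9, 102.3 and 28.2 TPM (47.1 ± 48.5 SD, n = 3), from 236, 2271 and 1497 expected counts. Replicate 2 was 8.88-fold above replicate 1 and 2.39-fold above replicate 3 on the CPM scale. The kallisto-format table also put replicate 2 highest, at 8.82, 76.2 and 28.8 TPM. Cenpa's promoter window holds a CHR beginning at base 17 and CCAAT boxes beginning at -109 and -86. Windows of other genes that were low in that library also hold both elements, and a link between motifs and level was not tested. The other 5 genes of this group were all over 2-fold lower in replicate 2. Spc25, a subunit of the microtubule-binding Ndc80 complex, was at 15.2, 2.90 and 17.1 TPM (11.7 ± 7.70), and its partners Ndc80 and Nuf2 had log2 ratios of -2.33 and -2.38, close to -2.56 for Spc25. Cenpf, a large kinetochore protein, had the lowest ratio of all 41 genes (-4.15), from 153, 13 and 539 counts, where 13 has an exact Poisson 95% interval of 6.92 to 22.2. Its levels were 2.37, 0.06 and 1.75 TPM. Cenpe, a kinetochore motor, had a mean of 3.65 TPM and a ratio of -2.27. None of the 6 genes was higher in replicate 1 than in replicate 3 on the CPM scale.

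Spindle motors and microtubule proteins had the lowest median ratio of the 7 role groups in replicate 2 (-3.34), and all 6 were over 2-fold lower there. Tpx2, which activates Aurora A on the spindle, was the most abundant at 9.27, 2.83 and 9.76 TPM (7.29 ± 3.87 SD, n = 3). Nusap1, a microtubule-bundling protein, was at 2.95, 0.50 and 6.19 TPM, and Hmmr, a spindle-pole protein and hyaluronan receptor, at 2.58, 0.27 and 4.84. Hmmr was 9.65-fold higher in replicate 1 and 22.5-fold higher in replicate 3 than in replicate 2, where it had 19 counts (exact Poisson 95% interval 11.4 to 29.7). The kallisto-format table gave Hmmr 1.95 TPM in replicate 2, so its size there differs between the tables although replicate 2 was lowest in both. Kif4, a chromosome-bound kinesin, was at 2.24, 0.23 and 2.59 TPM with a log2 ratio of -3.74. Kif2c, a microtubule-depolymerising kinesin, was at 2.27, 0.22 and 2.36 TPM with a ratio of -3.53. Kif11, the motor that separates spindle poles, had a mean of 2.81 TPM and a ratio of -1.98.

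Genes of the central spindle and cytokinesis were divided. Kif23 and Racgap1 encode the motor and the GTPase-activating protein of centralspindlin, the complex that bundles the central spindle. Kif23 was at 16.3, 19.3 and 52.6 TPM (29.4 ± 20.2 SD, n = 3) and Racgap1 at 13.4, 8.20 and 14.2 TPM (11.9 ± 3.25). Neither was over 2-fold lower in replicate 2 than in each other library, with log2 ratios of -0.23 and -0.89. The 4 other genes of the group were: Prc1 (a microtubule bundler, mean 6.67 TPM), Kif20a (a kinesin, 3.30), Anln (anillin, a furrow scaffold, 2.87) and Ect2 (the exchange factor for RhoA, 2.50). Their ratios ran from -2.78 for Anln to -1.69 for Ect2, which was at 4.50, 1.11 and 1.89 TPM.

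Genes of mitotic chromosome structure were all lowest in replicate 2, to different extents. Smc4, an ATPase subunit of condensin, was at 29.5, 28.3 and 47.4 TPM (35.1 ± 10.7 SD, n = 3), and its partner Smc2 at 15.9, 4.38 and 8.50 (9.60 ± 5.84). Their log2 ratios in replicate 2 were -0.66 and -1.59. Top2a, the topoisomerase that untangles sister chromatids, was at 34.4, 4.85 and 18.7 TPM (19.3 ± 14.8), 7.78-fold and 5.91-fold higher in replicates 1 and 3 than in replicate 2. Mki67, a coat protein of mitotic chromosomes used as a marker of proliferation, was at 13.7, 3.55 and 17.0 TPM (11.4 ± 7.02) with a ratio of -2.26. Ncapg and Ncapd2, condensin I subunits, had ratios of -2.83 and -1.25; Ncapg was the lowest of the group at 4.11, 0.56 and 3.35 TPM.

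The spread between libraries was wide for most of these genes and small for a few. The median SD of log2 CPM over the 41 genes was 1.37, against 0.41 for all genes tested, and all 41 were above that all-gene median, Aurkb (0.45) and Kif23 (0.47) only just. In 29 of 41 (70.7%) the highest library was at least 4-fold over the lowest, against 7.71% of all genes. Without replicate 2 the median SD was 0.41, and 0.36 for all genes in that setting.

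Between replicates 1 and 3 these genes went both ways, while genes of DNA replication were mostly higher in replicate 1. The median log2 difference of replicate 1 from replicate 3 was -0.13 over the 41 genes, with 17 higher in replicate 1 and a range from -1.89 for Cenpa to 1.32 for Cdk1. The centromere and kinetochore genes had a median of -0.76. For 42 DNA replication genes it was 1.44, with 39 higher in replicate 1. Of these, 26 were over 2-fold higher in replicate 1 than in each other library, against 1 of the 41 mitosis and cytokinesis genes. Over all genes tested that share was 4.45%. Pcna, the sliding clamp of DNA polymerases, was at 725, 178 and 325 TPM, and Mcm6, a helicase subunit, at 137, 19.5 and 36.4. Orc1, a subunit of the origin recognition complex, was the lowest at 4.40, 0.42 and 0.75 TPM. In replicate 2 the median ratio of the replication genes was -1.69. There 21 of 42 were over 2-fold lower, against 3.74% of all genes tested. The difference between the lists was not tested.

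The other lists for the cell cycle were set beside these genes. Over all genes tested, 3.74% were over 2-fold lower in replicate 2 and 3.74% over 2-fold higher there. Of 72 further mitotic genes 65 were tested, 34 were over 2-fold lower in replicate 2 (median ratio -1.48), and 55 were lowest there. Tuba1b, Tubb5 and H2afz were the most abundant of them, with means of 558, 257 and 162 TPM, and Fam83d the least, at 0.28. Dlgap5, a spindle protein, was at 9.18, 0.37 and 5.29 TPM. Ncapg2, a condensin II subunit chosen after its values were seen, was higher in replicate 2, as Cenpa was, at 23.5, 94.1 and 28.8 TPM. Among 23 regulators (DREAM, MuvB, E2F and RB proteins) the median ratio in replicate 2 was -0.46, and 4 were over 2-fold lower. Nfya, an NF-Y subunit, was at 84.8, 63.9 and 60.9 TPM and Mybl1 at 1.70, 0.25 and 0.45. The 18 tested G1 cyclins, kinases and inhibitors had a median ratio of 0.10 in replicate 2, with 3 over 2-fold lower and 3 over 2-fold higher there; Cdkn1a (p21) was at 238, 242 and 120 TPM and Ccnd1 (cyclin D1) at 377, 15.2 and 39.9.

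**Figure D4:**
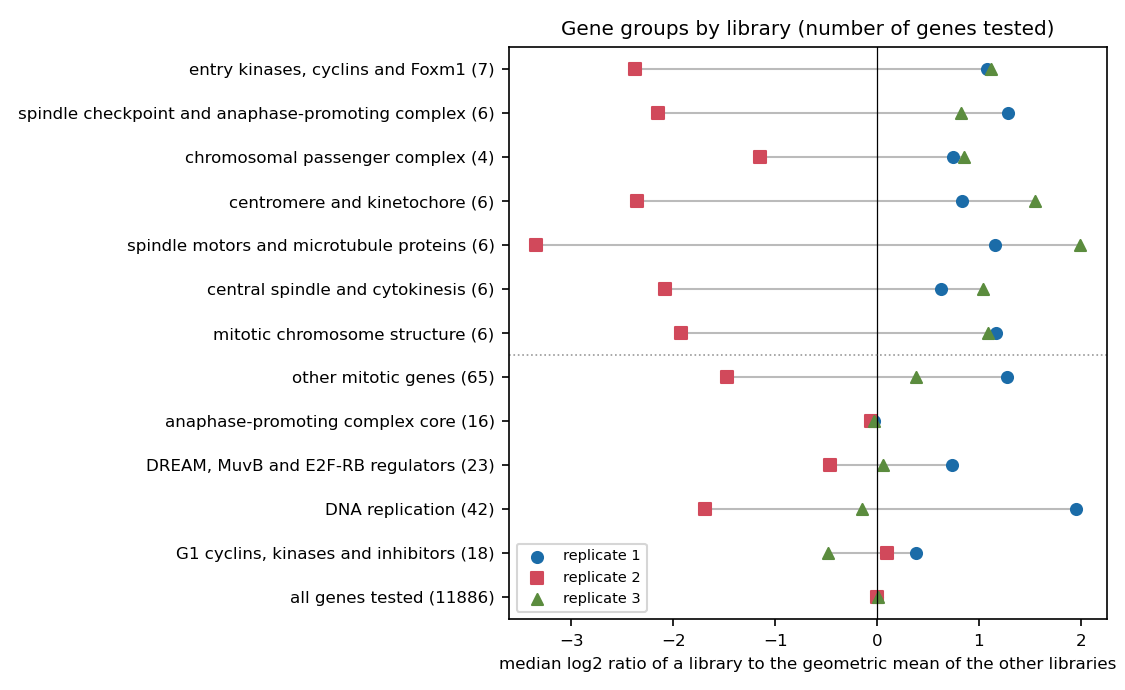
Median log2 ratio of each library to the geometric mean of the others (x axis, TMM-scaled counts) for the 7 role groups, 5 other lists and all genes tested (rows, number of genes tested in brackets). Replicate 2 (squares) lies left of 0 in all 7 role groups, from -3.34 to -1.15, while the anaphase-promoting complex core and all genes lie near 0 in every library and DNA replication is highest in replicate 1 (1.96).

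Markers of other bone marrow cells were measured beside these genes, and their part in the result was not tested. Of 10 neutrophil precursor markers, 2 reached 1 TPM everywhere. The list summed to 21.5, 5.45 and 74.6 TPM, lowest in replicate 2, as were the erythroid and stromal sums given below. Ngp was at 13.8, 1.95 and 57.5 TPM, Mpo at 0.72, 0.16 and 1.98 and Elane at 0.52, 0.07 and 0.66, and Ly6g was listed at 0 in all. The 8 progenitor markers summed to 3.71, 3.62 and 3.51 TPM, with Mecom and Hlf at or near 0. The 7 erythroid markers summed to 388, 281 and 344 TPM, nearly all of it from Tfrc (383, 275 and 340), while Hba-a1 was listed at 0. The 7 B cell precursor markers summed to 2.07, 3.31 and 3.42 TPM with Igll1 at 0, the 6 stromal markers to 1.19, 0.21 and 0.46 TPM, and the 6 monocyte markers to 48.6, 87.3 and 63.5 TPM.

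The transcript tables showed that for several of these genes the level did not come from coding transcripts alone. Over the 42 genes the median share of protein-coding transcripts was 99.3%, 94.0% and 96.4% in replicates 1, 2 and 3. Cdk1 was an exception. Its transcript Cdk1-204, a retained-intron model of 475 bases, took 51.8%, 41.9% and 71.7% of the gene's TPM, and coding transcripts gave 41.8, 11.7 and 10.7 TPM. These TPM are not scaled between libraries, and the small gap between replicates 2 and 3 gives no order.

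Cenpa was also divided among transcript types. Cenpa-202, annotated for nonsense-mediated decay, took 42.6%, 49.0% and 27.8% of its TPM, and coding transcripts gave 4.36, 28.6 and 13.9 TPM. Replicate 2 remained the highest, but with 1 TPM added it was under 2-fold above replicate 3, so the call ended on coding transcripts. For Kif23 the short processed transcript Kif23-212 (392 bases) was at 5.30, 7.04 and 35.3 TPM, while coding transcripts were at 7.82, 8.31 and 10.1. The high gene level of Kif23 in replicate 3 therefore lay in a non-coding model.

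Of the other genes at 5 TPM or more, Mad2l1, Cdca8, Incenp, Smc4, Smc2 and Prc1 changed their most abundant transcript between libraries or tables. Mad2l1-203, a retained-intron model, took 35.2%, 48.9% and 58.9% of Mad2l1. Cdca8-204, a processed transcript, was listed at 0 in replicates 1 and 2 and took 51.4% in replicate 3. Incenp and Smc4 shifted between coding models: Incenp-205 was at 12.9, 10.8 and 33.7 TPM, and Smc4-202 at 13.0, 9.35 and 37.6. The shifts in Cdca8, Incenp and Smc4 lay in replicate 3, the library with the most counts. Its median ratio of kallisto-format to RSEM-format TPM was also nearer 1, at 0.97 against 0.79 and 0.89 in replicates 1 and 2. Whether these library differences bear on the shifts was not tested. For Smc2, Smc2-202 took 37.3%, 85.8% and 57.8%. Ncapg lay below 5 TPM (mean 2.67), but its leading transcript changed too. Ncapg-206, a retained-intron model, took 7.56%, 21.4% and 67.8% of Ncapg, and coding transcripts gave 3.52, 0.40 and 0.90 TPM. The 5 genes with the lowest mean share for the leading transcript were Prc1 (45.9%), Cenpa (46.2%), Kif23 (46.9%), Incenp (50.7%) and Smc4 (52.2%).

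**Figure D5:**
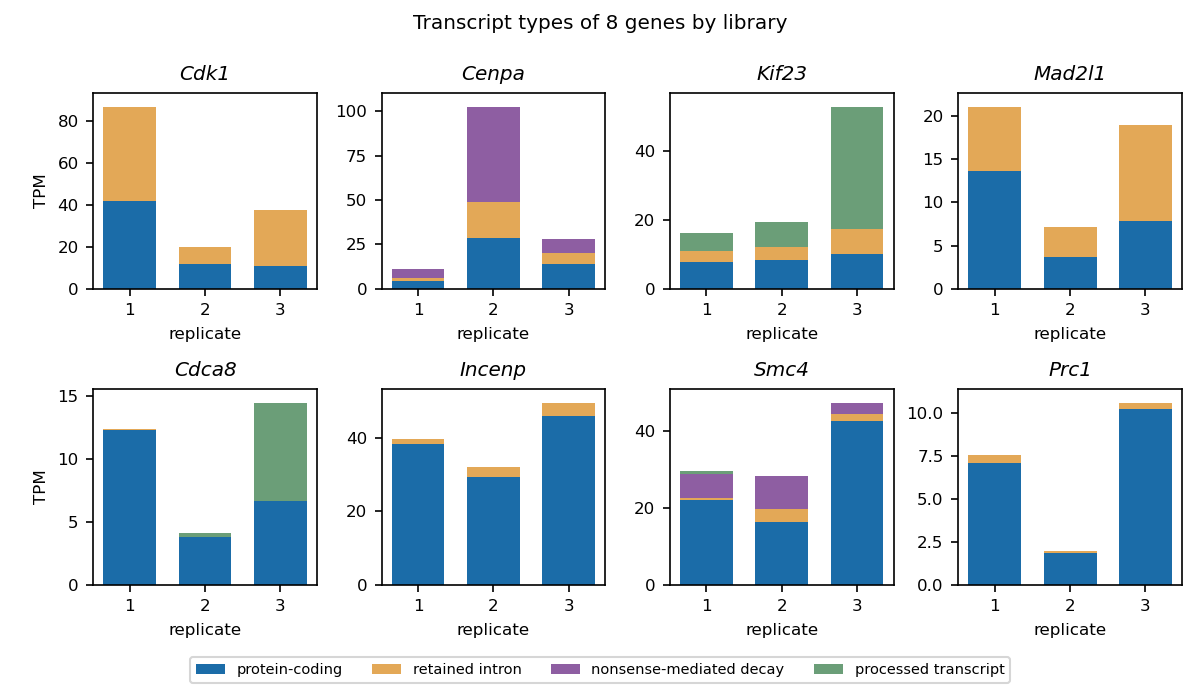
TPM (y axis, a scale for each gene) of 8 genes in replicates 1, 2 and 3 (x axis), stacked by the annotated type of the transcripts in the RSEM-format table. Coding transcripts of Kif23 stay between 7.82 and 10.1 TPM while its processed transcript Kif23-212 reaches 35.3 in replicate 3, and Cenpa is highest in replicate 2 in coding, decay and retained-intron models.

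The 2 transcript tables gave like levels for most of the 42 genes. The median ratio of kallisto-format to RSEM-format TPM (1 TPM added to each) was 0.79, 0.89 and 0.97 in replicates 1, 2 and 3, and 0.79, 0.80 and 0.97 over all genes. Hmmr in replicate 2 was the 1 case over 2-fold apart on that scale, which narrows gaps between values below 1 TPM. Without the added TPM, Cdc25c, Kif4 and Kif2c were also over 2-fold apart in replicate 2. Their RSEM-format levels there were 0.06, 0.23 and 0.22 TPM, and their kallisto-format levels 1.07, 0.648 and 0.495 TPM. By kallisto-format TPM, 38 of 42 genes were lowest in replicate 2.

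Where reads could belong to a neighbour the value is uncertain, because whether counting used strand is not given in the sources used here. Of the 42 genes, 24 overlap another annotated gene and 11 a protein-coding gene, 10 of them on the opposite strand. Cdc20 overlaps Elovl1 (140, 129 and 143 TPM), Ccna2 overlaps Exosc9 (40.7, 25.8 and 49.5), Kif4 overlaps Pdzd11 (45.0, 29.7 and 37.2) and Kif20a overlaps Cdc23 (14.4, 12.6 and 10.1). In these 4 pairs the member was over 2-fold lower in replicate 2 while the neighbour's level there was within 2-fold of the other libraries. The partner of Nusap1, Oip5, is itself a centromere gene and was at 5.34, 0.74 and 2.27 TPM.

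Genes with and without a CHR match had close medians in replicate 2. The median log2 ratio was -2.30 over the 28 genes with a match, from -4.15 to 2.20, and -2.33 over the 6 without, from -3.16 to -1.54. Birc5, whose printed stretch shows no capitals, had a ratio of -2.98. The printed genes with capitals lay on both sides of it: Cdk1 -1.31, Top2a -2.76, Ccnb2 -3.23, Ube2c -3.26 and Hmmr -3.88. With kallisto-format counts the ratio of Hmmr was -1.04. A link between the motifs and the ratios was not tested.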

How the data were processed

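Polyadenylated RNA of 3 libraries was placed in 1 group from the labels, so no comparison between groups was made. Per the file headers, each deposited gene and transcript table is in RSEM format and a further transcript table in kallisto format; the deposited file lists give mm10 and GENCODE M21. For the aligner, program versions and strand setting: not given in the sources used here. RSEM expected counts were deposited by the authors as estimates that need not be whole; they were rounded here. TPM were deposited by the authors after division by effective length, in both formats. The percent of a gene in each transcript was deposited by the authors too; shares here were recomputed from TPM. Entries that name no gene (0.131%, 0.122% and 0.0843% of counts) were left out.

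Low genes were removed by filterByExpr of edgeR 4.0.16 (R 4.3.3, limma 3.58.1), TMM scaling followed, and log2 CPM used a prior count of 0.5. A library's log2 ratio is its log2 CPM minus the mean of the others'; a gene is counted where it passes 2-fold against each of them. The ratio was tested on simulated data. Size factors of DESeq2 1.42.0, library totals, posterior mean counts, kallisto-format counts, no filter, log2 TPM and leaving out each library were tried. The median log2 ratio of all genes on the log2 TPM scale was 0.10, 0.12 and -0.23 in replicates 1, 2 and 3. Motifs were searched in RefSeq windows with Python.

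The genes, their role groups, the other lists and the naming rule were chosen with earlier results of these data known. The rule gives library values for the 8 genes of highest and 4 of lowest mean TPM, the 2 highest and the lowest of each role group, and the 4 largest and smallest ratios in replicate 2; of other lists, the 3 highest and the lowest and any needed; for transcripts, genes of at least 5 TPM with a changing leading transcript and the 5 lowest leading shares.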

Additional observations from a re-analysis of the deposited data

How the results depend on the processing

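The median log2 ratio of the mitosis and cytokinesis genes in replicate 2 was negative in every setting run, from -2.42 to -2.18 with a library left out. The other values ran from -2.34 without a filter to -1.31 for protein-coding transcripts only, a setting chosen after seeing the data. The number over 2-fold lower in replicate 2 was 32 to 34 with other counts or scaling, 35 and 36 with a library left out, 25 of 42 on the log2 TPM scale and 22 of 42 on coding transcripts. Without replicate 2 the ratio of replicate 1 turned from 1.05 to -0.11, since it was then taken against replicate 3 alone; without replicate 3 it was 2.18. The ratio of replicate 3, 1.16 with all libraries, was 0.11 without replicate 2 and 2.42 without replicate 1. At 5 TPM in place of 1 TPM, 8 genes passed in every library; at 1 TPM, 29 to 41 did with a library left out. The median level was 4.07 to 5.79 TPM and the median SD of log2 CPM 0.41 to 1.71 with a library left out. The number over 2-fold higher in replicate 3, 6 in the report, was 0 on coding transcripts, as was the 1 in replicate 2. In replicate 1 it was 2 by library totals and 3 on coding transcripts. Leaving a library out sets each remaining library against 1 other: the count was then 36 in replicate 3 without replicate 1, and 35 in replicate 1 without replicate 3. Low counts limit the lowest genes in replicate 2, such as Cdc25c with 2 counts. No paired analysis was possible because there is only 1 group.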
